A study of Mus musculus with 38 samples.

Results

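The 6 genes described here are markers and regulators of follicular helper T cells together with the gene for Blimp1, and they were followed across 14 RNA libraries of cultured mouse T helper cells. They are Bcl6, Prdm1 (which encodes Blimp1), Icos, Sh2d1a (which encodes the adaptor SAP), Pou2af1 (which encodes OCA-B) and Cxcr5. Each was taken by its symbol from the deposited gene tables, where it matched 1 of 23700 entries. All libraries came from CD4+ T cells of C57BL/6J mice, sorted as naive cells from spleen and lymph nodes and polarized in culture into Th1 or Th2 cells. The series asked how the STAT proteins, which carry cytokine signals to the nucleus, shape the enhancers of helper cells, and RNA was measured beside chromatin (chromatin data were not analysed here).

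Of the 13 groups, 12 held 1 library and 1, WT Th1, held 2. In 6 libraries the cells carried no vector, had been cultured for 7 days and were restimulated through CD3 and CD28 over 2 h. These are WT Th1 (replicates 1 and 2), STAT4 KO Th1 (allele STAT4 tm1) and T-bet KO Th1 (Tbet tm1), given IL12, and WT Th2 and STAT6 KO Th2 (Stat6 tm1), given IL4. The other 8 libraries came from retrovirally transduced cultures that the labels put at day 5. Th1 cells, WT or STAT4 KO, received a control or a T-bet vector, and Th2 cells, WT or STAT6 KO, received a control or a GATA3 vector. For the Th1 vector cultures another field of the labels gives 7 days and the 2 h restimulation, and for the Th2 vector cultures no restimulation is given. Vector, day and restimulation therefore cannot be told apart, and their joint difference is called vector culture below. Within the vector cultures restimulation is given for Th1 only, so differences between Th2 and Th1 there cannot be told apart from it. The same holds for contrasts of the T-bet with the GATA3 vector and, in those cultures, of the STAT4 with the STAT6 knockout. Whether libraries came from separate animals or cultures is not said. Because 12 of the 13 groups held 1 library, p-values here rest mostly on how far libraries depart from a sum of separate factor differences. An interaction between factors therefore widens that spread. Replicate spread comes from WT Th1 alone and may be technical. Knockout cells carried the deletion from the start of culture, and no selection of transduced cells is described in the sources used here.

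Follicular helper T cells help B cells in germinal centres. Bcl6 is the transcriptional repressor that directs their program, and Blimp1 is a repressor that opposes it: each represses the gene of the other. Cytokines that act through STAT proteins feed into both genes. CXCR5 is the chemokine receptor that leads these cells to follicles, ICOS is a costimulatory receptor on which they depend, SAP couples receptors of the SLAM family to signalling during contact with B cells, and OCA-B is a coactivator of octamer-binding factors that was first known in B cells. Cells polarized in culture as Th1 or Th2 are not follicular helper cells, although they can express several of these genes.

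The libraries held an estimated 21890000 to 38520000 fragments in genes. WT Th1 replicate 2 and T-bet KO Th1 stood apart from the other 12: small RNA genes made up 20.7% and 22.2% of their summed FPKM (fragments scaled to transcript length and library size), against 4.43% to 7.65% elsewhere, and the labels do not explain it. Estimates are therefore also given from a fit with a term for these libraries, called the batch term. CD4 T cell markers were high: all 8 were above 1 FPKM in all 14 libraries, and Cd4 lay between 63.4 and 235 FPKM. B cell RNA, which bears on Bcl6 and Pou2af1, was low, with 9 of 10 B cell markers under 1 FPKM in every library and a summed level of 0.374 to 1.54 FPKM. Tbx21, which encodes T-bet, was at 88.4 and 153 FPKM in WT Th1 and 4.18 in T-bet KO, and reached 245 and 137 FPKM with its vector. Gata3 reached 589 and 377 FPKM with the GATA3 vector. The Stat4 and Stat6 transcripts did not separate knockout from WT throughout: Stat4 was at 17.5 FPKM in STAT4 KO Th1 and at 15.1 in WT Th1 replicate 2, and Stat6 was at 34.6 in STAT6 KO Th2 and at 35.6 in WT Th2. Fewer expressing cells and less RNA per cell cannot be told apart in any of these bulk values.

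Promoter sequence was matched for 3 of the 6 genes, and the Bcl6 windows are shown because they held matches to the letters that STAT proteins bind. Sequences are the 250 bases before RefSeq starts (table build GRCm38.p6), placed by exact match in mm9. They are written 5′ to 3′ on the strand of the gene, and capitals mark TTCNNNGAA, searched on both strands (it is its own reverse complement in the fixed letters). Bcl6 has a window at chr16:23988939-23989188, minus strand, just before its annotated transcripts, and one at chr16:23981370-23981619, minus strand, in an intron of the annotated gene, before an internal RefSeq start. Prdm1, shown for contrast, has a window at chr10:44178555-44178804, minus strand, which lies in an intron of an annotated Prdm1 transcript.
Bcl6 upstream window: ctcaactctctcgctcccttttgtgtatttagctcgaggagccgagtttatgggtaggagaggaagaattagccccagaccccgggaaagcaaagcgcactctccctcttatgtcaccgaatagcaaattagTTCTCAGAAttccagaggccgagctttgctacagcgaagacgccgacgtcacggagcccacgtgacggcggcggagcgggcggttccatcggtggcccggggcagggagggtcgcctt
Bcl6 intronic window: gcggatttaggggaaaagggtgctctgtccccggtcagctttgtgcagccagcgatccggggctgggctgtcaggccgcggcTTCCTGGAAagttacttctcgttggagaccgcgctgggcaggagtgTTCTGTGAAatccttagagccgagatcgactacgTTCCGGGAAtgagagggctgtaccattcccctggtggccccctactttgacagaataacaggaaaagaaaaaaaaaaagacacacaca
Prdm1 window: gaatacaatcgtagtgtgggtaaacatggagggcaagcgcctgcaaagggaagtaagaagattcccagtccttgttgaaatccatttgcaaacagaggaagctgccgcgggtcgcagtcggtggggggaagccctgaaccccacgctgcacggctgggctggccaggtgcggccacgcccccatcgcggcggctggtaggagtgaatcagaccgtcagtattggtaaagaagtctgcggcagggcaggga

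The intronic Bcl6 window held 3 matches, 168, 122 and 88 bases before the start, and the upstream window held 1, 118 bases before its start. Among 32841 promoter windows of this length, 7.02% held at least 1 match and 9 windows (0.0274%) held 3 or more. The Prdm1 and Pou2af1 (chr9:51021545-51021794, plus strand) windows held none. Of the other motifs searched on both strands, the Blimp1 letters GNGAAAG occurred once in the upstream Bcl6 window (19.4% of all windows hold them). The same STAT arms with 1 more base between them, the spacing that STAT6 prefers, occur in 5.85% of windows. The GATA letters AGATAA occur in 9.99%, the T-box letters GGTGTGA in 3.33% and the octamer ATGCAAAT in 1.60%. None of these 4 was found in the windows of the 3 genes. A match describes letters only.

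The 6 genes differed widely in level. By median FPKM over the 14 libraries, which scales for transcript length, Icos was highest (94.8), followed by Pou2af1 (56.9), Sh2d1a (18.8), Bcl6 (13.2), Prdm1 (2.88) and Cxcr5 (0.192). Prdm1 spanned the widest range between its lowest and highest library, 49.2-fold, and Pou2af1 the narrowest, 5.23-fold. The only replicate pair, WT Th1, gives the one direct measure of spread: its libraries differed 1.14-fold for Pou2af1, 1.24-fold for Icos, 1.37-fold for Bcl6, 1.56-fold for Sh2d1a, 2.32-fold for Prdm1 and 3.37-fold for Cxcr5. Of 21 pairs of libraries compared below, 18 for Pou2af1 differed by more than that replicate fold. The number was 16 each for Bcl6 and Icos, 12 each for Prdm1 and Sh2d1a and 4 for Cxcr5. The replicate difference was smaller than that of Pou2af1 in 17.3% of genes, and smaller than that of Prdm1 in 77.3%. These counts therefore depend in part on how close the 2 replicates lay for each gene, and replicate 2 is a library that stood apart. When the libraries were ordered by level, steps between neighbours were small, as ordering makes them. Of 13 steps, those past the replicate fold were 5 for Icos, 4 for Pou2af1, 3 for Bcl6, 1 each for Prdm1 and Sh2d1a and 0 for Cxcr5. The widest step was for Prdm1, 3.24-fold, between the 5 lowest libraries and the 9 others.

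**Figure D1:**
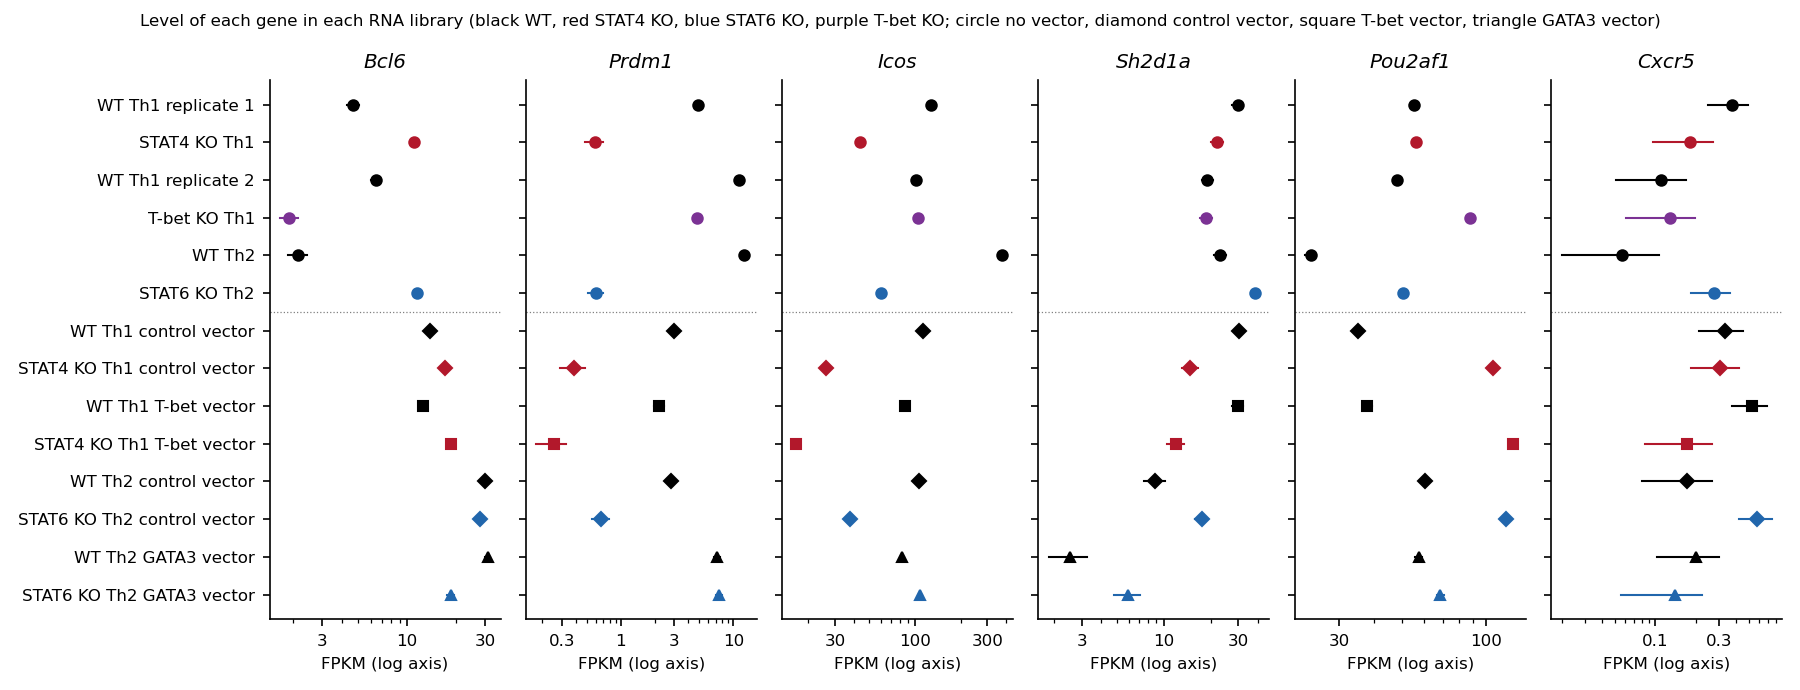
FPKM of each gene (log axis) in each of the 14 libraries, with the interval that Cufflinks lists as a line (cut at 0.02 for Cxcr5 in WT Th2); the dotted line divides the no-vector libraries above from the vector libraries below. Bcl6 is higher in every vector library (12.5 to 31.2) than in every no-vector library (1.90 to 11.6), and Prdm1 is lowest, at 0.254 to 0.676, in the 5 STAT knockout libraries without the GATA3 vector.

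Tests were made with limma on log2(FPKM + 1) over all 11121 genes that reached 1 FPKM in at least 2 libraries, with additive terms for lineage, vector culture, each knockout and each added factor, so fold changes of low genes are understated. Of the 6 genes 5 were tested, since Cxcr5 did not reach 1 FPKM in any library. At a Benjamini-Hochberg adjusted p under 0.05, 1 of the 5, Bcl6, was called for vector culture, where 31.5% of all genes were called. None of the 5 was called for STAT4 KO (0.728% of all genes), STAT6 KO (0.962%), lineage (3.21%), T-bet KO (0.018%), the T-bet vector (0.0%) or the GATA3 vector (1.05%). At an unadjusted p under 0.05, 3 of the 5 passed for STAT4 KO (15.7% of all genes), 3 for STAT6 KO (11.0%), 1 for lineage (19.5%), 0 for T-bet KO (14.5%), 0 for the T-bet vector (1.35%) and 2 for the GATA3 vector (8.57%). With the batch term, Bcl6 and Sh2d1a were called for vector culture (51.0% of all genes) and Sh2d1a for the GATA3 vector (2.9%). The median difference of the 5 genes was -0.65 for STAT4 KO against 0.04 over all genes, and 0.39 against 0.04 for STAT6 KO. For vector culture it was -0.55 against 0.16. Each such median is the estimate of 1 gene: Sh2d1a for STAT4 KO and vector culture, and Bcl6 for STAT6 KO. In all of these comparisons the 5 estimates went in both directions, for STAT4 KO from -1.82 (Icos) to 0.96 (Pou2af1).

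**Figure D2:**
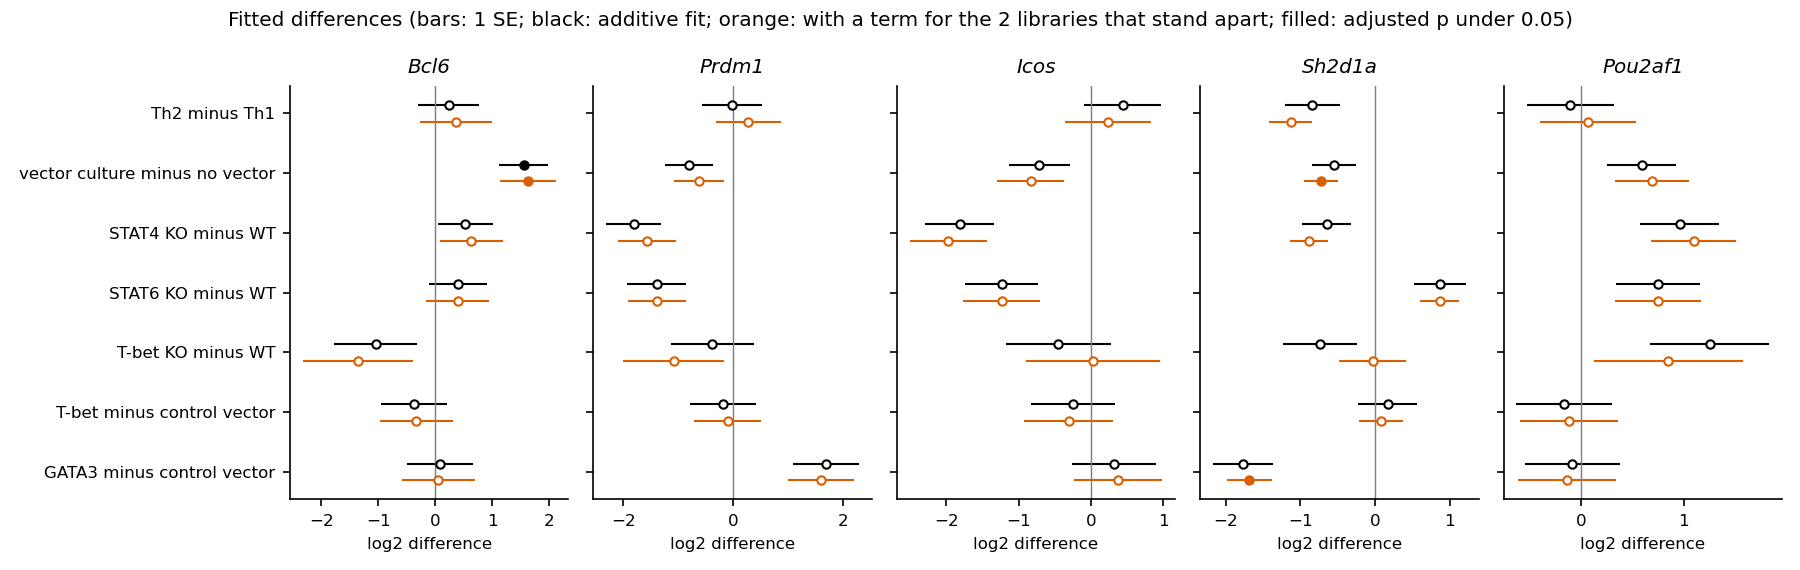
Fitted log2 differences of the 5 tested genes for each of the 7 terms, with bars of 1 SE; black points come from the additive fit, orange points from the fit with the batch term, and filled points have an adjusted p under 0.05. Filled points appear for Bcl6 in vector culture (1.55 and 1.63) and, with the batch term only, for Sh2d1a in vector culture (-0.72) and with the GATA3 vector (-1.68).

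Bcl6, the repressor that defines follicular helper cells, was higher in every vector culture than in every culture without a vector, and it was lowest in the T-bet KO and WT Th2 libraries. It lies at chr16:23965138-23988698 (mm9). Without a vector it was at 4.67 and 6.41 FPKM in the WT Th1 replicates, 11.0 in STAT4 KO Th1, 1.90 in T-bet KO Th1, 2.14 in WT Th2 and 11.6 in STAT6 KO Th2. In the Th1 vector cultures it was at 13.8 (WT) and 17.1 (STAT4 KO) with the control vector and at 12.5 and 18.5 with the T-bet vector. In the Th2 vector cultures it was at 30.3 (WT) and 28.2 (STAT6 KO) with the control vector and at 31.2 and 18.5 with the GATA3 vector. The 8 vector libraries did not overlap with the 6 others, which held for 15.5% of all genes in that direction.

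The fitted rise of Bcl6 with vector culture was 1.55 ± 0.42 log2 units (SE; limma adjusted p = 0.0235), and 1.63 with the batch term (adjusted p = 0.0295). All genes together had a median of 0.16 in this comparison, which upper-quartile scaling moved to 0.01, where Bcl6 was at 1.39. The call was lost with quantile normalization (1.35, adjusted p = 0.0507) and without WT Th1 control vector (1.69, adjusted p = 0.0557), WT Th2 control vector (1.25, adjusted p = 0.0805) or STAT6 KO Th2 control vector (1.50, adjusted p = 0.0695). Without WT Th2 the estimate was 0.98. By genotype, control vector over no vector was 2.96-fold and 2.16-fold for WT Th1, 1.56-fold for STAT4 KO Th1, 14.1-fold for WT Th2 and 2.44-fold for STAT6 KO Th2. The large WT Th2 value rests on the single WT Th2 library without a vector. That library also had the highest summed level of 7 myeloid markers (9.79 FPKM, of which Emr1 gave 8.42, against a lowest sum of 0.314), with Lyz2 at 0.0571 FPKM or less in all libraries, and its part in the Bcl6 level was not tested.

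That library also carries what Bcl6 showed for lineage and for STAT6. Without a vector, WT Th2 held 0.459-fold and 0.334-fold the Bcl6 of the WT Th1 replicates. With the control vector, WT Th2 held 2.19-fold that of WT Th1. There, lineage cannot be told apart from restimulation, which is given for Th1 only. The lineage difference between cultures was 2.34 ± 0.43 log2 units (limma adjusted p = 0.399; 0.0632 with the batch term), and it was -0.07 when WT Th2 was left out; this interaction was added after the data were seen. STAT6 KO held 5.40-fold the Bcl6 of WT in the cultures without a vector, 0.931-fold with the control vector and 0.594-fold with the GATA3 vector. The difference between cultures was -2.41 ± 0.43 (adjusted p = 0.741). The STAT6 KO estimate over all cultures, 0.39 ± 0.51 (adjusted p = 1), turned to -0.43 without WT Th2.

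For STAT4, Bcl6 was higher in the knockout library of all 4 pairs, by 1.24-fold to 2.36-fold. Here and below, STAT4 KO Th1 is paired with each WT Th1 replicate, so the 4 pairs hold 3 knockout libraries. For such counts of direction, here and below, the share of all genes was not counted. The STAT4 KO estimate for Bcl6 was 0.53 ± 0.48 log2 units and did not pass the test (limma adjusted p = 0.599). Without STAT4 KO Th1 that estimate was 0.16. T-bet KO Th1 held 0.406-fold and 0.296-fold the Bcl6 of the WT Th1 replicates (-1.04 ± 0.72, adjusted p = 0.402). Bcl6 RNA in the libraries with the T-bet vector was 0.907-fold (WT) and 1.08-fold (STAT4 KO) that with the control vector.

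Prdm1, which encodes the repressor Blimp1, was at its lowest in cells lacking STAT4 or STAT6, except where GATA3 was added. It lies at chr10:44156981-44178493 (mm9). In Th1 cells without a vector it was at 4.81 and 11.2 FPKM in WT and at 0.588 in STAT4 KO. With the control vector it was at 2.97 in WT and 0.385 in STAT4 KO, and with the T-bet vector at 2.19 and 0.254. All 3 STAT4 KO libraries lay below all 4 WT Th1 libraries, which held for 6.28% of all genes. In each of the 4 pairs, which hold these 3 knockout libraries, the knockout held between 0.0527-fold and 0.130-fold the WT level. Of all genes, 0.809% were at least 2-fold lower in all 4 pairs. Such 2-fold counts over genes, here and below, are on the log2(FPKM + 1) scale. The fitted difference was -1.81 ± 0.50 log2 units (limma adjusted p = 0.142) and -1.58 with the batch term (adjusted p = 0.135). With a pseudocount of 0.1 FPKM, which compresses low values less, it was -2.98 (adjusted p = 0.0648).

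In Th2 cells without a vector Prdm1 was at 12.5 FPKM (WT) and 0.608 (STAT6 KO), and at 2.80 and 0.676 with the control vector. With the GATA3 vector the levels were 7.14 in WT and 7.51 in STAT6 KO. The knockout thus held 0.0485-fold and 0.242-fold the WT level in the 2 pairs without it and 1.05-fold in the pair with it, and over 3 libraries against 3 the groups overlapped. A difference of at least 2-fold lower in both pairs without the GATA3 vector was seen in 1.83% of all genes. The fitted STAT6 KO difference was -1.40 ± 0.53 (adjusted p = 0.351), which became -0.77 without WT Th2 and -2.13 without WT Th2 GATA3 vector. Prdm1 with the GATA3 vector over the control vector was 2.55-fold in WT and 11.1-fold in STAT6 KO, and 2.04% of all genes were at least 2-fold higher in both pairs. The GATA3 vector estimate was 1.68 ± 0.60 (adjusted p = 0.417), and it was 0.59 without STAT6 KO Th2 GATA3 vector and 2.78 without WT Th2 GATA3 vector.

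Whether GATA3 acted differently without STAT6 was tested with an interaction term, 2.19 ± 0.94 for Prdm1, with an unadjusted p of 0.0537 in limma and an adjusted p of 1. No gene of 11121 was called for this term in that fit (0.0%) and 5 were with the batch term. The T-bet vector gave no such difference in level: Prdm1 with it was 0.736-fold the control vector level in WT and 0.661-fold in STAT4 KO. The T-bet and GATA3 vector terms differed by -1.87 ± 0.79 (adjusted p = 0.588; 0.558% of all genes called), and by -0.78 without STAT6 KO Th2 GATA3 vector. In STAT6 KO Th2 with the GATA3 vector, Tbx21 was at 24.7 FPKM. Of the markers of plasma cells, which also express Blimp1, Igj was at most at 0.113 FPKM, Tnfrsf17 at 0.0875 and Derl3 at 0.551. Sdc1 ran from 0.0424 to 10.1 FPKM, highest with the GATA3 vector in WT Th2, and Xbp1 from 31.5 to 89.0; their part in the Prdm1 levels was not tested.

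**Figure D3:**
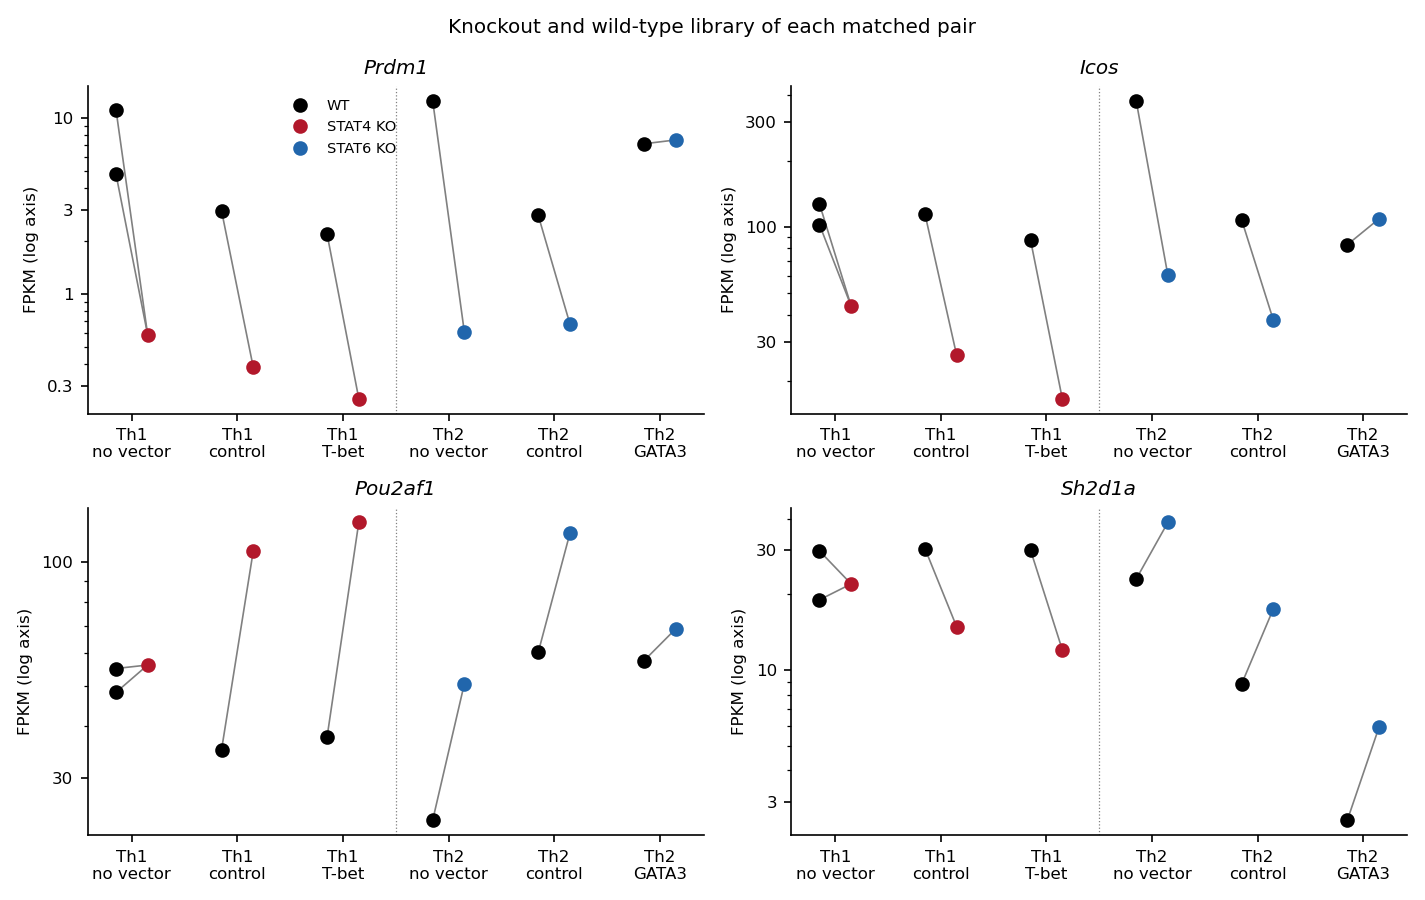
FPKM (log axis) of 4 genes in the wild-type library (black) and the STAT4 KO (red) or STAT6 KO (blue) library of each matched pair, joined by lines; both WT Th1 replicates are drawn. Prdm1 and Icos are lower in the knockout in every pair except the GATA3 vector pair (Prdm1 7.14 and 7.51, Icos 83.2 and 109), Pou2af1 is higher in the knockout in every pair, and Sh2d1a is higher in each STAT6 KO library.

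Icos, the costimulatory receptor of the CD28 family, was like Prdm1 lowest in the 5 STAT knockout libraries without the GATA3 vector. The order of the 9 other libraries differed between Icos and Prdm1. Icos lies at the locus given next. This is chr1:61034758-61057164 (mm9). In Th1 cells it was at 127 and 103 FPKM in WT against 43.8 in STAT4 KO without a vector. With the control vector the levels were 114 in WT and 26.1 in the knockout, and with the T-bet vector 87.0 and 16.6. The 3 STAT4 KO libraries lay below the 4 WT libraries without overlap, which held for 6.28% of all genes. The knockout held 0.191-fold to 0.427-fold the WT level, and 0.809% of all genes were at least 2-fold lower in all 4 pairs. The fitted difference was -1.82 ± 0.48 log2 units (limma adjusted p = 0.129), and -1.97 with the batch term (adjusted p = 0.0869).

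In Th2 cells without a vector Icos was at 374 FPKM in WT, the highest of all libraries, and 60.4 when STAT6 was deleted. With the control vector it was at 107 and 37.7, and with the GATA3 vector at 83.2 in WT and 109 in STAT6 KO. As for Prdm1, the knockout was at least 2-fold lower in the 2 pairs without the GATA3 vector (1.83% of all genes) and not in the pair with it. The STAT6 KO estimate was -1.24 ± 0.51 (adjusted p = 0.411), which became -0.565 without WT Th2 and -2.05 without WT Th2 GATA3 vector. With the GATA3 vector Icos was 0.775-fold the control vector level in WT and 2.89-fold in STAT6 KO. This interaction was 2.43 ± 0.76 with an unadjusted p of 0.0156 in limma, and it did not pass adjustment over all genes (adjusted p = 1; 0.973 with the batch term).

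Across all 14 libraries, the 5 STAT knockout libraries without the GATA3 vector were the 5 lowest for both genes: 0.254 to 0.676 FPKM against 2.19 to 12.5 for Prdm1, and 16.6 to 60.4 against 83.2 to 374 for Icos. This division was drawn after the values were seen, and 104 of 11121 genes (0.935%) were lowest in the same 5 libraries. It is given as a description. Of 75 tested genes from the pathway lists described further on, 2 shared it: Id2, an inhibitor of E proteins known to oppose the follicular helper program (37.1 to 65.4 FPKM against 78.9 to 183), and Il10 (0.0255 to 3.39 against 6.16 to 894). On log2(FPKM + 1) Prdm1 and Icos had a Pearson r of 0.85 over the 14 libraries, and 0.88 over the 12 without WT Th1 replicate 2 and T-bet KO Th1. The libraries share genotypes and cultures, so these points are not independent.

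Bcl6 was above Prdm1 in 10 of 14 libraries. The 4 others were WT Th1 replicates 1 and 2, T-bet KO Th1 and WT Th2, all without a vector. Prdm1 was 1.03-fold and 1.74-fold the Bcl6 level in the WT Th1 replicates, 2.50-fold in T-bet KO Th1 and 5.85-fold in WT Th2. In the 5 STAT knockout libraries without the GATA3 vector, Bcl6 was at 18.7-fold to 72.8-fold the Prdm1 level. The highest ratio of the 9 other libraries was 10.8-fold, in WT Th2 control vector. These 5 libraries were grouped after their low Prdm1 was seen, which by itself raises this ratio. Bcl6 alone overlapped, at 11.0 to 28.2 FPKM in the 5 against 1.90 to 31.2 in the 9 others. With the GATA3 vector the ratio of Bcl6 to Prdm1 was 4.37-fold in WT and 2.47-fold in STAT6 KO. Over all 14 libraries the log2 levels of Bcl6 and Prdm1 had an r of -0.44 (-0.37 over 12). The GATA3 vector libraries were high in both genes, with Prdm1 at 7.14 and 7.51 FPKM and Bcl6 at 31.2 and 18.5.

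**Figure D4:**
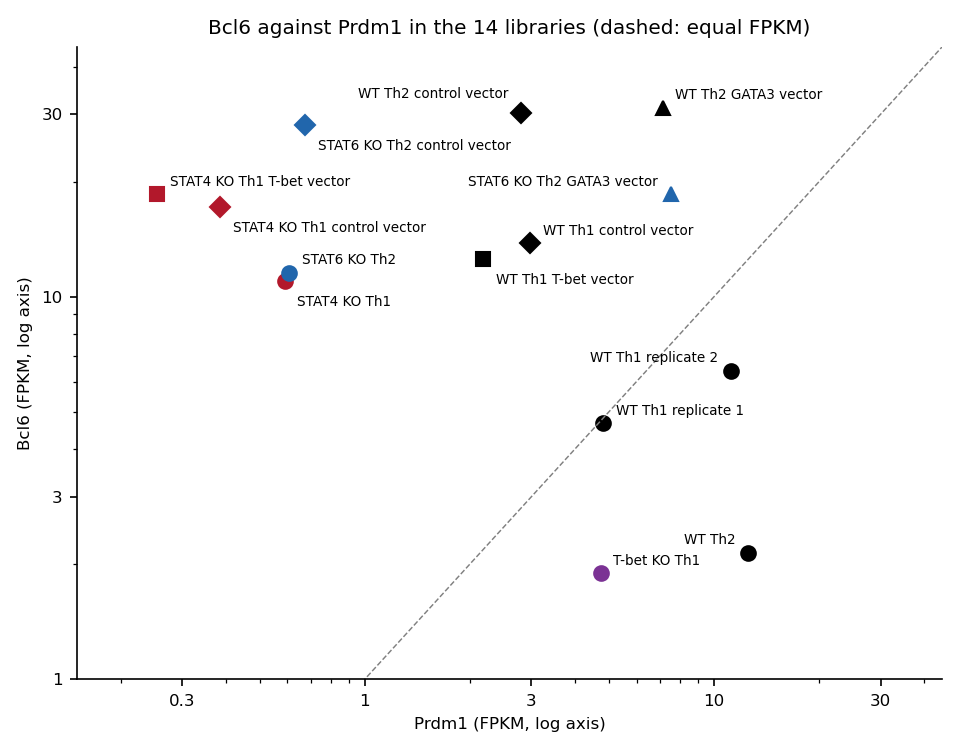
Bcl6 against Prdm1 in FPKM (both axes log), 1 point per library, black for WT, red for STAT4 KO, blue for STAT6 KO and purple for T-bet KO; the dashed line marks equal levels. The 4 libraries at or below the line are the WT and T-bet KO libraries without a vector, and the 5 points at the left are the STAT knockout libraries without the GATA3 vector (Bcl6 18.7-fold to 72.8-fold the Prdm1 level).

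Sh2d1a, which encodes SAP, lay on opposite sides of WT in the 2 STAT knockouts in the vector cultures and was lowest with the GATA3 vector. It lies at chrX:39855785-39875252 (mm9). In Th1 cells it was at 29.8 and 19.0 FPKM in the WT replicates and 22.0 in STAT4 KO without a vector. It was at 30.4 and 14.9 with the control vector and at 29.9 and 12.1 with the T-bet vector. In Th2 cells it was at 23.0 in WT and 38.7 in STAT6 KO without a vector, 8.84 and 17.6 with the control vector, and 2.54 and 5.94 with the GATA3 vector. STAT6 KO held more than WT in all 3 pairs (1.68-fold, 1.99-fold and 2.34-fold), whereas STAT4 KO held 0.403-fold and 0.489-fold the WT level in the vector pairs and lay between the 2 WT replicates without a vector.

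Neither knockout term passed the test for Sh2d1a: STAT4 KO was -0.65 ± 0.33 log2 units (limma adjusted p = 0.38) and STAT6 KO 0.87 ± 0.35 (adjusted p = 0.392). The difference between the knockout terms was -1.52 ± 0.48 (adjusted p = 0.273, with 0.611% of all genes called) and -1.75 with the batch term (adjusted p = 0.065). A fit with a block for each matched culture and vector, added after the data were seen, gave -1.58 (adjusted p = 0.142), and -1.75 with the batch term (adjusted p = 0.0329). Fitted on the 8 vector libraries alone, which leave 2 residual degrees of freedom, it was -2.06 (adjusted p = 0.0499). With the GATA3 vector Sh2d1a was 0.287-fold the control vector level in WT and 0.338-fold in STAT6 KO, and 0.252% of all genes were at least 2-fold lower in both pairs. That term was -1.77 ± 0.40 (adjusted p = 0.0991). It passed the test with the batch term (-1.68 ± 0.30, adjusted p = 0.039), where Sh2d1a was among 27 genes that fell. The batch term also called the fall of Sh2d1a with vector culture (-0.72 ± 0.23, adjusted p = 0.0351), which the additive fit did not (-0.55 ± 0.29, adjusted p = 0.184). For lineage, Th2 minus Th1 was -0.84 ± 0.36 (adjusted p = 0.253; 0.0694 with the batch term).

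Pou2af1, which encodes the coactivator OCA-B, was higher in the knockout library of every STAT pair, by 1.02-fold to 3.29-fold. Neither knockout term passed the test, and the share of all genes with 1 direction in every pair was not counted. It lies at chr9:51021795-51048184 (mm9). In Th1 cells it was at 55.2 and 48.3 FPKM in WT against 56.3 in STAT4 KO without a vector. The vector cultures held 35.1 (WT) and 106 (STAT4 KO) with the control vector, and 37.8 and 124 with T-bet. All 3 STAT4 KO libraries lay above all 4 WT Th1 libraries, which held for 4.49% of all genes, but without a vector the margin was 1.02-fold and 1.16-fold against 3.02-fold and 3.29-fold in the vector cultures. The STAT4 KO estimate was 0.96 ± 0.38 log2 units (limma adjusted p = 0.277; 0.173 with the batch term). Its dependence on culture was 1.51 ± 0.37 (adjusted p = 0.683), an interaction that was added after the data were seen.

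In Th2 cells without a vector Pou2af1 was at 23.8 FPKM in WT, its lowest library, and at 50.7 in STAT6 KO. With the control vector it was at 60.4 and 117, and with the GATA3 vector at 57.6 and 68.7. STAT6 KO thus held 2.13-fold, 1.94-fold and 1.19-fold the WT level, the smallest fold again with the GATA3 vector, and the estimate was 0.75 ± 0.41 (adjusted p = 0.627). T-bet KO Th1 was at 87.8 FPKM, 1.59-fold and 1.82-fold the WT Th1 replicates (0.66 and 0.85 log2 units). The additive estimate, 1.26 ± 0.58 (limma adjusted p = 0.337), lay above both, and with the batch term it was 0.85 (adjusted p = 0.737). WT Th2 held 0.430-fold and 0.492-fold the WT Th1 level without a vector and 1.72-fold with the control vector. The difference between cultures was 2.06 ± 0.41 (limma adjusted p = 0.399, and 0.0648 with the batch term). As for Bcl6, lineage cannot be told apart from restimulation in the vector cultures. Over the 14 libraries Pou2af1 had an r of -0.80 with Icos and -0.57 with Prdm1.

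Cxcr5, the follicle homing receptor (chr9:44319870-44334504, mm9), was near the limit of detection. Its level ran from 0.0568 FPKM in WT Th2 to 0.579 in STAT6 KO Th2 control vector, with an estimated 5 to 53 fragments behind each value. The WT Th1 replicates were at 0.371 and 0.110 FPKM, with listed intervals of 0.249 to 0.493 and 0.0513 to 0.169 that do not overlap. These intervals cover counting error only. In a fit with no filter on low values, no comparison called Cxcr5. Few fragments, WT replicates this far apart and a log2(FPKM + 1) scale that compresses low values all limit that fit. Bcl6, Icos, Sh2d1a and Pou2af1 were at 1 FPKM or more in all 14 libraries.

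Genes around these 6 in the same pathways were taken from fixed lists. For vector culture, 27 of their 75 tested genes (36.0%) were called, against 31.5% of all genes, and 39 (52.0%) with the batch term, against 51.0%. The lists as a whole were thus near the background, and the calls that follow describe single genes. Of 13 tested transcription factors of the follicular helper program, 4 (30.8%) rose and 0 fell with vector culture in the additive fit, a share next to the 31.5% of all genes: Bach2 by 1.88 ± 0.22 log2 units (limma adjusted p = 0.000776), Tox by 0.93, Irf4 by 0.71 and Foxp1 by 0.64. Bach2, a repressor known to restrain Prdm1, was at 21.4 to 35.4 FPKM in the vector libraries and at 4.19 to 15.9 without a vector. The median of this list was 0.14, close to the 0.16 of all genes. Tox2, a factor that promotes the follicular helper program, fell in STAT6 KO (-1.01 ± 0.14, limma adjusted p = 0.0155) and was higher in Th2 than Th1 cells (0.80, adjusted p = 0.0256). It was the only call of the list in each, where 0.962% and 3.21% of all genes were called. Tox2 was low, and it reached 1 FPKM only in WT Th2 control vector (1.31) and WT Th2 GATA3 vector (2.49). It thus passed the filter only through WT Th2 libraries, where it was high, so these calls are not independent of the filter. In STAT4 KO the largest estimates of the list, Id2 (-1.37 ± 0.28, adjusted p = 0.0743) and Batf (-1.20, adjusted p = 0.269), did not pass. Batf, an AP-1 family factor that both programs need, ran from 20.9 FPKM in STAT4 KO Th1 to 246 in WT Th2, and its STAT6 KO estimate was -1.81 (adjusted p = 0.151).

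Among 8 cytokines and receptors of the program, 4 fell and 1 rose with vector culture (62.5% called, against 31.5% of all genes). Il21, the cytokine by which follicular helper cells drive B cells, fell by 1.98 (adjusted p = 0.0261), as did Il10, Il6ra and Il6st, while Il21r rose by 0.71. The list median was -0.80 against 0.16 over all genes. For lineage, where 3.21% of all genes were called, Il4 (4.69) and Il6 (5.04) were higher and Il6st (-1.43) lower in Th2 than Th1 cells. Il4 lost its call with the batch term (4.36, limma adjusted p = 0.083). In STAT4 KO none was called in the additive fit, and with the batch term Il6st (-1.26, adjusted p = 0.0246) and Il21r (-1.13, adjusted p = 0.0432) fell. Il21 was at 39.3 and 51.3 FPKM in the WT Th1 replicates and at 1.11 in STAT4 KO without a vector, and its estimate was -3.12 ± 0.63 (adjusted p = 0.0729). T-bet KO Th1 had the highest Il21 of all libraries, 158 FPKM. Il10 in STAT4 KO had -3.49 (adjusted p = 0.0835). In STAT6 KO, where 0.962% of all genes were called, 2 of the 8 fell, Il10 (-5.87) and Il6 (-5.08), against a list median of -0.91.

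Of 11 surface and costimulatory genes, vector culture raised Cd200 (2.63) and lowered Cd40lg (-2.23) and Il7r (-2.06). That is 27.3% called, against 31.5% of all genes, with a list median of -0.14. STAT4 KO, where 0.728% of all genes were called, lowered Il7r, the IL-7 receptor chain (-1.58 ± 0.22, limma adjusted p = 0.0251). With the batch term Cd28 (-1.32), a relative of ICOS, and Il2rb (-1.39) also fell in STAT4 KO. Of 7 tested genes of the SLAM and SAP pathway, 1, Slamf1, passed the test for vector culture in the additive fit (-1.19, list median -0.39). That is 14.3%, against 31.5% of all genes. With the batch term 5 of the 7 passed (71.4%, against 51.0% of all genes): Ly9 and Fyn rose, and Slamf1, Slamf6 and Cd84 fell. Slamf6, a receptor to which SAP binds, also rose with that term in STAT6 KO (1.87, limma adjusted p = 0.0179) and fell with the GATA3 vector (-1.65, adjusted p = 0.0321). Sh2d1a had the same directions there. In STAT4 KO their directions differed, with Slamf6 at 0.54 (limma adjusted p = 0.225) and Sh2d1a at -0.88 with the batch term. Of 6 genes of the ICOS pathway only Rc3h1, which encodes the Roquin protein that represses Icos RNA, was called. It rose with vector culture (0.88, limma adjusted p = 0.0118, list median 0.13). That is 16.7% of the list, against 31.5% of all genes.

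Of 9 tested Bcl6 corepressors and relatives, 4 rose and 1 fell with vector culture (55.6% called, against 31.5% of all genes; 88.9% against 51.0% with the batch term), and the list median was 0.69 against 0.16 over all genes. Among them Hdac3 rose by 0.69, Bcorl1 by 1.01 and Zbtb32 by 2.20, and Mta3 fell (-0.58). In the additive fit none was called for either STAT knockout. Of 10 PR domain genes and Blimp1 partners, 5 (50.0%) rose with vector culture in the additive fit and 6 (60.0%) with the batch term, against 31.5% and 51.0% of all genes (list median 0.57). They were Prdm15 (1.10), Prdm2 (0.61), Kdm1a (0.97), Hdac2 (0.985) and the corepressor Tle1 (0.52), with Tle3 added by the batch term. Tle1 was also higher in Th2 than Th1 cells (1.22, adjusted p = 0.012). Of 4 OCA-B partners, 1 (25.0%, against 31.5% of all genes) was called for vector culture, with a list median of 0.45. This was Pou2f2, the octamer-binding factor Oct-2, which rose by 1.90 ± 0.33 (limma adjusted p = 0.00376). It was at 109 and 116 FPKM in the STAT4 KO vector libraries and at 37.9 and 36.5 in their WT partners. The STAT4 KO estimate of Pou2f2 was 1.20 ± 0.37 and did not pass (limma adjusted p = 0.19). Pou2af1 also differed most in these pairs, and a link between Pou2f2 and Pou2af1 was not tested. Of 7 positioning receptors, 2 were called for vector culture (28.6%, against 31.5% of all genes, list median -0.15). Gpr183 rose (0.99, limma adjusted p = 0.0693 with the batch term) and Selplg fell (-1.12). In STAT6 KO the estimate of Gpr183 was -1.58 (adjusted p = 0.11).

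By likeness of log2 level over the 14 libraries, among 9010 genes that reached 5 FPKM, Metrnl was closest to Prdm1 (r = 0.977, and 0.973 over the 12 libraries without those that stood apart), followed by BC021614, Zbtb38, Fam132a and 0610031J06Rik (0.944 to 0.922). The nearest genes to Icos were Cysltr1 (0.956), Arl6ip5, Zbtb38 (0.897), Crem and Scd2, so that Zbtb38 was near both. AW112010 was closest to Sh2d1a (0.928), followed, among others, by Gimap4, BC094916 and Ifngr1. Bcl6 had Atg4b (0.921), Coq6, Mdc1, Tef and Polr3a as its nearest, and Pou2af1 had Ssbp4 (0.890), Slc9a5, M6pr, Slc2a4rg-ps and 9430008C03Rik. For Cxcr5 the highest value was lower (Exoc2, 0.757), followed by Smchd1, Lysmd1, Zeb1 and Ugcg, with few fragments behind its levels. When 12 libraries were used, 0 of the 5 nearest genes of Bcl6 and Cxcr5, 1 of those of Sh2d1a and Pou2af1, 2 of Prdm1 and 3 of Icos were again among the nearest 5.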

How the data were processed

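RNA of 14 libraries was analysed. The deposited values are FPKM per gene, with intervals, made by the authors. TopHat, Cufflinks and SICER, and build mm9, are named in the submitters' processing notes. Their versions, the annotation and any use of strand are not given in sources used here. Fragments were estimated from the listed intervals, and their number limits precision; intervals cover counting error only. Entries at several loci (241 symbols) or with a failed status in any library (118 genes) were left out. Values were tested as log2(FPKM + 1) with limma 3.58.1 (R 4.3.3; lmFit, eBayes with trend), over 11121 genes at 1 FPKM or more in at least 2 libraries, in a single additive fit over all 14 libraries, because 12 of 13 groups have 1 library. Calls use a Benjamini-Hochberg adjusted p under 0.05 over all genes. The fit was tested on simulated data. Alternatives were other pseudocounts (0.1 and 0.5), other filters, upper-quartile and quantile scaling, a batch term, interactions, a block for matched culture and vector, separate fits by culture, and leaving out each library. The members and lists were chosen with earlier results of these data known. Named are all 6 members, list genes called for a term in either fit or with the largest estimates for a STAT knockout or lineage, and the 5 genes most like each member. Some genes that this rule names are not reported here. None of the 6 overlaps another entry. Promoter windows were matched exactly to the mm9 genome, and motifs were searched on both strands.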

Additional observations from a re-analysis of the deposited data

How the results depend on the processing

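Of 651 alternative values for the 27 estimates of single genes, 633 kept their direction and their side of the threshold, 5 lost and 10 gained a call, and 3 reversed: Bcl6 in STAT6 KO was -0.41 in the vector libraries alone and -0.43 without WT Th2 (range over left-out libraries -0.43 to 0.95), and its lineage difference between cultures was -0.073 without WT Th2 (range -0.073 to 2.80). The number of the 5 tested genes called for vector culture, 1, became 0 with quantile normalization, 2 with the batch term and 0 with batch term and interactions, and ran from 0 to 2 when single libraries were left out (2 without WT Th1 replicate 2; 0 without WT Th1, WT Th2 or STAT6 KO Th2 control vector). For the GATA3 vector it went from 0 to 1 with the batch term, and from 0 to 1 over left-out libraries (1 without WT Th1 replicate 2). In the vector libraries alone it went from 0 to 1 for lineage and from 0 to 1 for STAT4 KO minus STAT6 KO, Sh2d1a in both. For the interactions chosen after seeing the data, leaving out single libraries gave 0 to 3 for lineage by vector culture and 0 to 2 for STAT4 KO by vector culture, the highest without WT Th1 replicate 1, where the remaining WT Th1 library without a vector is replicate 2. The cause of these changes was not tested. Genes called over the whole table moved too: with the batch term from 357 to 760 for lineage (55 to 760 over all alternatives), from 3505 to 5671 for vector culture (2071 to 5671), from 81 to 388 for STAT4 KO (0 to 410), from 107 to 301 for STAT6 KO (15 to 302), from 2 to 98 for T-bet KO (1 to 5421), from 0 to 2 for the T-bet vector (0 to 3) and from 117 to 322 for the GATA3 vector (15 to 322). No paired analysis was possible because the groups share fewer than 2 replicate numbers in the labels. A block for each matched culture and vector, added after seeing the data, called 0 of the 5 genes for either STAT knockout with or without the batch term; for STAT4 KO minus STAT6 KO it called 0, and 1 with the batch term (Sh2d1a). Within pairs of libraries, 42 of 105 differences of the 5 tested genes (Cxcr5 left out) reached 2-fold on the log2(FPKM + 1) scale, and 43 after upper-quartile scaling; as ratios of FPKM they numbered 48 and 45. Depth limits Cxcr5, with 5 to 53 estimated fragments, and the fits by culture have 1 (no vector) and 2 (vector) residual degrees of freedom.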
